A study of Mus musculus with 6 samples.

Results

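The genes examined here encode 9 surface molecules that B cells use to instruct, or to be instructed by, other lymphocytes and myeloid cells: Cd86, Cd80, Icosl, Cd83, Cd200, Slamf1, Ly9, Cd48 and Cd44. They were taken as a named list of costimulatory and activation molecules, and all 9 were present among the 12431 genes of the count table. RNA was sequenced from follicular B cells, sorted as CD21/35- CD23+ from spleens of adult male mice and cultured for 1 h in complete RPMI with serum and no added stimulus. The groups were WT (Gpr174+/Y, 3 libraries) and KO (Gpr174-/Y, 3 libraries). In KO mice a tdTomato reporter replaces the coding exon of Gpr174. GPR174 is a lysophosphatidylserine receptor that signals through Gαs, and its gene lies on the X chromosome. The allele was made in 129-strain embryonic stem cells and backcrossed to C57BL/6J, and it is carried by every cell of the animal, not by B cells alone. All libraries share the same hour in culture, so an uncultured level is not part of the comparison.

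CD80 and CD86 are the B7 ligands that engage CD28 and CTLA-4 on T cells, and ICOSL is the B7 relative that engages ICOS. CD86 is raised within hours of B cell activation and is a known target of cAMP signaling. CD83 holds CD86 and MHC class II at the surface by opposing the ubiquitin ligase MARCH1, whereas CD200 delivers an inhibitory signal to myeloid cells through its receptor. SLAM family receptors such as SLAMF1 and LY9 bind their own kind on a neighboring cell and signal through SAP adaptors, CD48 is the lipid-anchored ligand of CD244 and CD2, and CD44 binds hyaluronan and marks lymphocytes that have met antigen.

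After 1 h, Cd86 was higher in WT than in KO B cells, at 1.53 times the KO level, while Cd200 and Slamf1 were lower, at 54.8% and 53% of the KO level. The remaining members did not pass the test, although Ly9 came close to it on the lower side. Of the 8 members that had enough reads to be tested, 1 was called higher in WT, where 1.3% of the 10514 tested genes were, and 2 were called lower, where 0.514% were. The share of all tested genes called in either direction was 1.82%. WT and KO values did not overlap in 5 of the 8, against 16.7% of all tested genes. The list was named with such results in view, so these shares describe it and are no test of it. A gene was called at an adjusted p under 0.05 in edgeR's quasi-likelihood test over all tested genes, and log2 fold changes (log2FC) are WT over KO throughout. Adjusted p values come from that test unless another tool is named. Levels are CPM, counts scaled to a common library total after TMM adjustment. In bulk RNA, fewer cells that express a gene and less RNA per cell cannot be told apart.

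**Figure D1:**
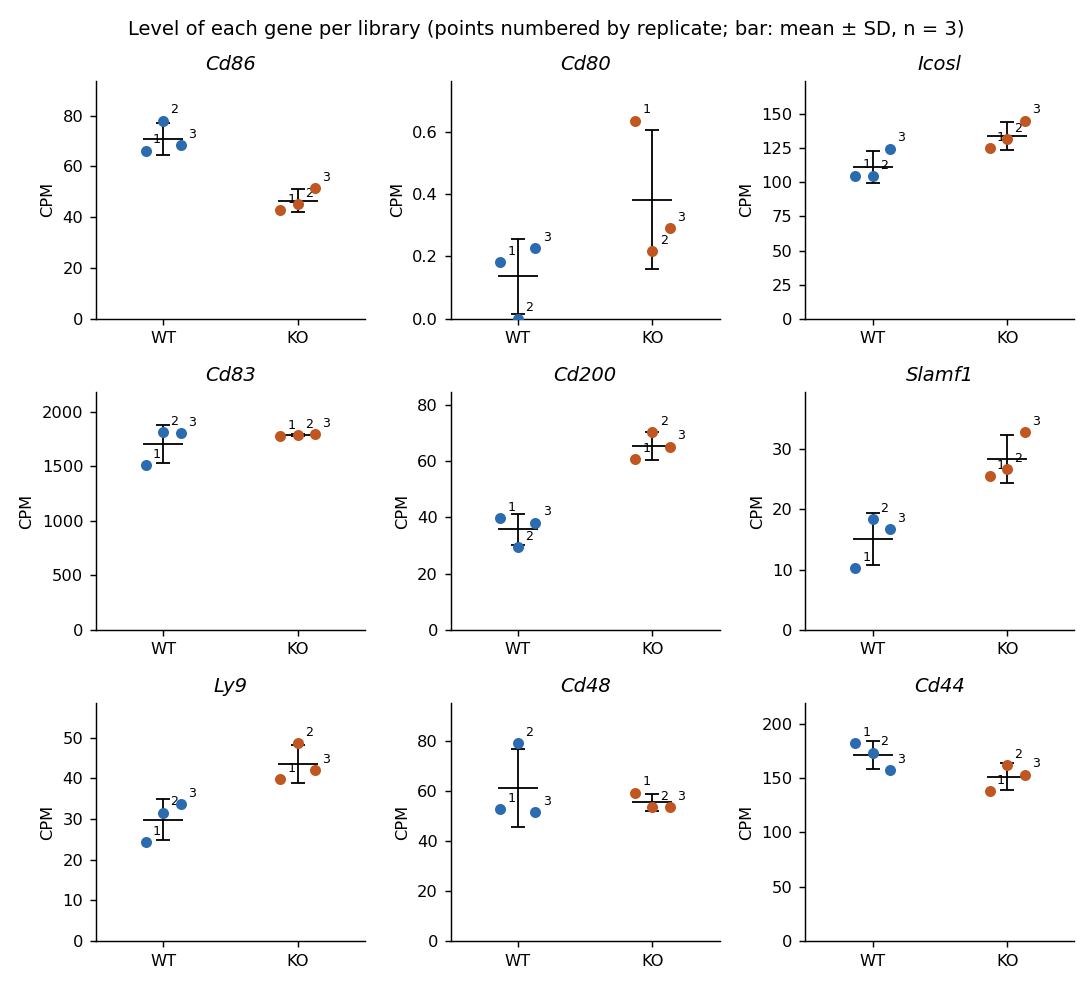
CPM of each of the 9 genes (vertical axes, all starting at 0) in the 3 WT and 3 KO libraries; points are single libraries numbered by replicate, and the bars give the mean ± SD. WT points lie above all KO points for Cd86 and below all KO points for Icosl, Cd200, Slamf1 and Ly9.

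The libraries held 8452460 to 10944833 counts. Gpr174 itself was at 135.9, 125.5 and 121.5 CPM in WT and at 99.9, 100.2 and 99.8 CPM in KO, so reads were still assigned to it in KO cells and it gave no check of the labels. The design text gives 3 mice per genotype. Libraries of a group differed by more than counting noise, with chi-square values of 6.89 to 10.9 times their degrees of freedom. WT replicate 2 stood apart on the first principal component, at a score of 31.1 where the others lay between -8.16 and -3.67. Values without this library are therefore given below for Cd86, Cd200, Slamf1, Cd48 and the ratios of Cd86 to Slamf1 and Cd200. Follicular B cell markers were present at a summed 5593 to 5854 CPM in WT and 6206 to 6467 CPM in KO. The defining gene Ms4a1 (CD20) averaged 1285 CPM for WT and 1346 CPM for KO. Among the 9 follicular markers 1, Cd79b, was called lower in WT (4 at an unadjusted p under 0.05, and 3 by DESeq2). Markers of other cells were detected as well. T cell genes summed to 48.8 to 69.4 CPM in WT and 37 to 55.1 CPM in KO, NK cell genes to 7.61 to 11.7 and 5.85 to 6.76, and myeloid genes to 51.4 to 75.2 and 46.8 to 54. Dendritic cell genes summed to 19.6 to 29.7 and 17.9 to 24.1, and germinal center B cell genes to 8.06 to 14.7 and 7.74 to 10. Marginal zone markers summed to 940.7 to 1133 CPM in WT and 949.7 to 1195 CPM in KO, plasma cell markers to 448.8 to 528.8 and 559.8 to 622.8, and erythroid markers to 2679 to 4714 and 3010 to 7569. Only Irf4, in the plasma cell list and also active in other B cells, was called among these 8 lists (lower in WT). In the 7 lists with no edgeR call, 0 or 1 gene had an unadjusted p under 0.05, and DESeq2 called 0. The follicular and plasma cell sums were lower in every WT than in every KO library, and the NK cell sum was higher. Irf4 held most of the plasma cell sum, at means of 373.4 CPM for WT and 484.1 CPM for KO. All other plasma cell genes had higher or near-equal means in WT. Gzma held the largest part of the NK cell sum, at means of 5.598 CPM for WT and 2.615 CPM for KO. Klrb1c also had a higher mean in WT, and Nkg7 and Klrd1 had lower ones. The part of these sums in the results below was not tested.

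Among the B7 ligands, Cd86 (chromosome 16, 36603869 to 36666081, mm10) stood at 66.2, 78.0 and 68.5 CPM in WT replicates 1 to 3 and at 42.6, 45.1 and 51.4 CPM in KO replicates 1 to 3. Every WT library lay above every KO library. Mean levels ± SD over 3 libraries were 70.9 ± 6.28 CPM for WT and 46.4 ± 4.52 CPM for KO, a log2FC of 0.61 ± 0.12 (SE, adjusted p 0.0029). The call was kept in all 6 fits that left out 1 library, where the log2FC ran from 0.54 to 0.69 and the adjusted p from 0.00341 to 0.0383. Without WT replicate 2, which held the highest level, it was 0.54 with an adjusted p of 0.0151. Myeloid and dendritic cells also express Cd86, and their marker sums overlapped between the groups. Myeloid sums were 75.2, 70.6 and 51.4 CPM in WT replicates 1 to 3 and 46.8, 54 and 52.5 CPM in KO replicates 1 to 3, and their part in the Cd86 difference was not tested.

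Cd80 (chromosome 16, 38455561 to 38496335), which encodes the partner of CD86 in binding CD28, was barely detected. It had 2, 0 and 2 counts in WT and 7, 2 and 3 counts in KO, and 3 counts amount to 0.273 to 0.358 CPM in these libraries. The gene did not pass the filter on low counts and no fold is given. A difference was not detectable at this depth. With no filter, its adjusted p was 0.835.

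Icosl (chromosome 10, 78069302 to 78083913), the gene for the ICOS ligand, was not called. Its level was 105, 104.5 and 124.7 CPM in WT and 125.1, 131.6 and 145.3 CPM in KO. The highest WT library lay just below the lowest KO library. The log2FC was -0.27 ± 0.10 (SE, 95% interval -0.46 to -0.07), with an adjusted p of 0.201. It did not pass in any of the 15 other fits run, where the adjusted p ranged from 0.0865 to 0.617.

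**Figure D2:**
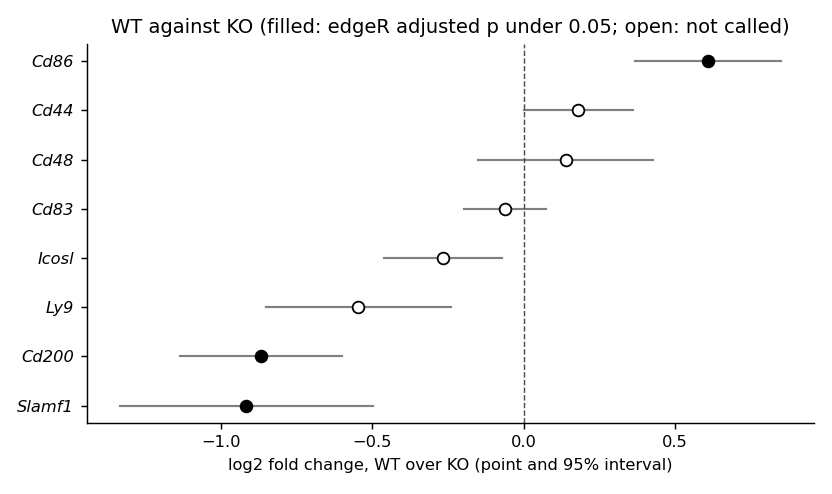
Log2 fold change of WT over KO (horizontal axis) for the 8 tested genes, with 95% intervals from the edgeR fit; filled points have an adjusted p under 0.05. Cd86 lies to the right of 0 at 0.61, Cd200 and Slamf1 lie to the left at -0.87 and -0.92, and the intervals of Cd48 and Cd83 include 0.

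Cd83 (chromosome 13, 43784775 to 43803132) was not called. Its level was 1508, 1817 and 1802 CPM in WT and 1775, 1784 and 1792 CPM in KO. The KO libraries lay within a narrow band, and WT replicates fell on both sides of it. The log2FC was -0.06 ± 0.07 (SE, 95% interval -0.20 to 0.08, adjusted p 0.789). WT replicate 1 decided its sign, since without it the value was 0.02.

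Cd200 (chromosome 16, 45382135 to 45409053) gave the smallest adjusted p of the list. Its level was 39.7, 29.3 and 38.2 CPM in WT and 60.7, 70.4 and 65.1 CPM in KO. All WT libraries lay well below all KO libraries, and WT replicate 2 was the lowest. Means ± SD over 3 libraries were 35.7 ± 5.59 CPM for WT and 65.4 ± 4.87 CPM for KO. The log2FC was -0.87 ± 0.13 (SE, adjusted p 0.000127), and by its p-value the gene ranked 32 among the 10514 tested genes. In fits that left out 1 library the log2FC ran from -0.95 to -0.75, and the call was kept in all 6. Without WT replicate 2 it was -0.75, with an adjusted p of 0.000457. Cd200r1, the gene of its receptor on myeloid cells, was not tested, with 9 counts in WT replicate 2 and 0 to 2 in each other library.

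Slamf1 (chromosome 1, 171767127 to 171801184), which encodes the founding SLAM receptor (CD150), showed the largest fold change of the tested members on fewer reads. It was at 10.2, 18.4 and 16.7 CPM in WT, from 112, 154 and 147 counts, and at 25.5, 26.7 and 32.9 CPM in KO, from 280, 245 and 337 counts. The groups did not overlap, with WT replicate 1 lowest and KO replicate 3 highest. Means ± SD over 3 libraries were 15.1 ± 4.29 CPM for WT and 28.3 ± 3.95 CPM for KO, giving a log2FC of -0.92 ± 0.20 (SE, adjusted p 0.0127). This call rested on the libraries at the extremes. It was lost without WT replicate 1 (log2FC -0.69, adjusted p 0.0818) and without KO replicate 3 (-0.80, adjusted p 0.163), and was kept in the other 4 such fits. Without WT replicate 2 the log2FC was -1.08, with an adjusted p of 0.00315.

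Promoter sequence is shown for Slamf1 and Cd200 because these are the members called lower in WT, and it lets their sequence be set beside each other. RefSeq windows of 300 bases (250 before to 50 after the start site, GRCm38.p6, the assembly called mm10) were found for 6 of the 9 members: Cd80, Icosl, Cd200, Slamf1, Cd48 and Cd44. They were searched on both strands for the full cAMP response element TGACGTCA, its core TGACG, which lies within the full element, and the AP-1 element TGANTCA. The 250 bases before the start site are printed 5′ to 3′ on each gene's own strand, for Slamf1 at chr1:171766882-171767131 (plus strand) and for Cd200 at chr16:45409054-45409303 (minus strand), with any match in capitals.
Slamf1: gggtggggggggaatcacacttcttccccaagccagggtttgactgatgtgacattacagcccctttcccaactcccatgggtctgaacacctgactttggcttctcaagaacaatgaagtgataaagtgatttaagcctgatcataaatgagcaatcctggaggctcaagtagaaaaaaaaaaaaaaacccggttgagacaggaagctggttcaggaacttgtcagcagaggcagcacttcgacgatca
Cd200: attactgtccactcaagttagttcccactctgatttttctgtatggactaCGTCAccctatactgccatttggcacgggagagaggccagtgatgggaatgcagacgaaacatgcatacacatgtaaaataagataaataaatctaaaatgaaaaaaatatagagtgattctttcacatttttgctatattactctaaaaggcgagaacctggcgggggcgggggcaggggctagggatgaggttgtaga
The capitals in the Cd200 sequence mark CGTCA, which is that core read on the opposite strand, 200 bases before the start site. The Slamf1 window held none of the 3 elements. The core occurred in 20.8% of all 32851 promoter windows, full elements in 1.79% and AP-1 elements in 7.81%. Among the other 4 windows, that of Cd80 held an AP-1 element and those of Icosl, Cd48 and Cd44 held none of the 3. A match of letters is a description of the window, not a site of binding.

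Ly9 (chromosome 1, 171588624 to 171607410), which encodes the SLAM receptor CD229, was at 24.2, 31.6 and 33.7 CPM in WT and at 39.8, 48.7 and 42.1 CPM in KO. All WT libraries were below all KO libraries. Its log2FC was -0.55 ± 0.15 (SE, 95% interval -0.85 to -0.24), at 68.4% of the KO level, but the adjusted p of 0.0534 missed the threshold. In 6 of 9 fits with another tool, scaling, filter or design it passed, with an adjusted p as low as 0.0294, and in fits that left out 1 library it did not (adjusted p 0.0516 to 0.305). Ly9 lies within the span of Cd244 on the opposite strand, and the use of strand in counting was not stated, so reads of the pair may not have been told apart. Cd244 itself averaged 1.48 CPM for WT and 1.78 CPM for KO.

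Cd48 (chromosome 1, 171682009 to 171705258), the SLAM family ligand, was not called. It was at 52.7, 79.1 and 51.4 CPM in WT and at 59.3, 53.4 and 53.3 CPM in KO. WT replicate 2 alone stood high, and the other 2 WT libraries were just below the KO libraries. The log2FC was 0.14 ± 0.14 (SE, 95% interval -0.15 to 0.43, adjusted p 0.771). Without WT replicate 2 its direction turned, to -0.09.

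**Figure D3:**
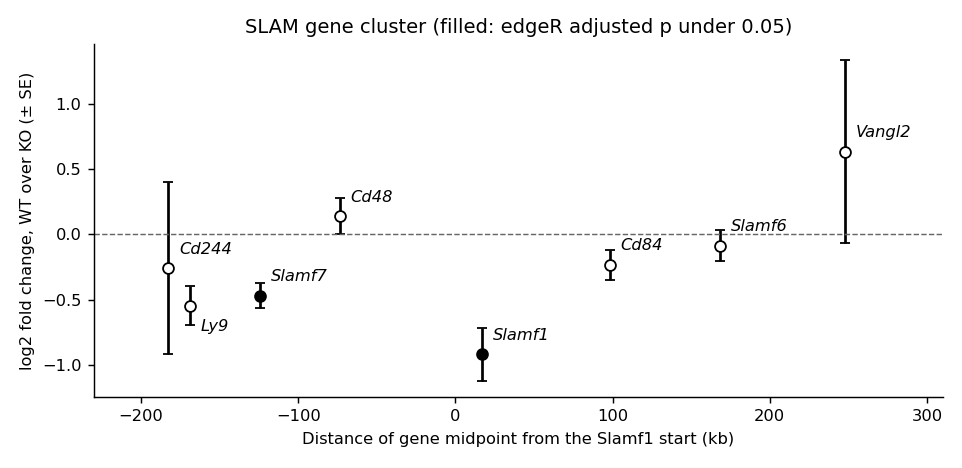
Log2 fold change of WT over KO ± SE (vertical axis) against the distance of each gene's midpoint from the Slamf1 start in kb (horizontal axis) for the 7 SLAM genes and Vangl2 on chromosome 1; filled points have an adjusted p under 0.05. Slamf1 and Slamf7 are called lower in WT at -0.92 and -0.47, and Cd48, between them, is at 0.14.

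Slamf1, Ly9 and Cd48 belong to a cluster of 7 SLAM genes that spans 394 kb of chromosome 1. Of the 7, 2 were called, Slamf1 and Slamf7, both lower in WT, as 0.514% of all tested genes were. Slamf1 lost its call without WT replicate 1 or without KO replicate 3. Slamf7, which encodes CRACC and is not one of the 9, was at 96.8, 82.2 and 106 CPM in WT and 127.5, 135.6 and 131.9 CPM in KO. All its WT libraries were below all its KO libraries, and its log2FC was -0.47 ± 0.10 (SE, adjusted p 0.00655). Leaving out KO replicate 3 raised its adjusted p to 0.0529. Cd84 and Slamf6, on the far side of Slamf1, were not called, at a log2FC of -0.23 (adjusted p 0.425) and -0.09 (0.836). Of the genes next to the cluster, Vangl2 was not called (log2FC 0.63 ± 0.70 SE, adjusted p 0.795), and Itln1 was not tested.

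Cd44 (chromosome 2, 102811141 to 102901665), the hyaluronan receptor, was at 182.2, 173.3 and 157.5 CPM in WT and at 137.6, 162.1 and 153 CPM in KO. WT replicate 3 lay below KO replicate 2, so the groups overlapped. The log2FC was 0.18 ± 0.09 (SE, 95% interval 0.00 to 0.36, adjusted p 0.415). No fit that left out 1 library called it. Cd44 and Cd48 each overlap another annotated gene, Gm23731 on the opposite strand and Gm37010 on the same strand, and their counts carry that uncertainty.

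The opposite movement of Cd86 against Slamf1 and Cd200 was then measured inside each library, where scaling between libraries drops out. The number of Cd86 counts per Slamf1 count was 6.46, 4.25 and 4.1 in WT and 1.67, 1.69 and 1.56 in KO. Per Cd200 count it was 1.67, 2.66 and 1.79 in WT and 0.702, 0.641 and 0.789 in KO. WT cells thus gave more Cd86 than Cd200 reads in every library, and KO cells fewer in every library. On the log2 scale with 2 counts added, the WT minus KO difference was 1.54 for Slamf1, from 2.25 ± 0.36 in WT to 0.71 ± 0.06 in KO (SD, n = 3), and 1.49 for Cd200, from 0.99 ± 0.36 to -0.50 ± 0.15 (SD, n = 3). Leaving out WT replicate 2 changed these differences to 1.635 for Slamf1 and 1.283 for Cd200. The genes of both ratios were named for their opposite directions, so the ratios describe that pattern and carry no test. Cd86 and Cd200 lie on the same chromosome, so the opposite directions are found within chromosome 16 as well as between chromosomes. The number of reads per transcript can differ between genes, and the ratios compare libraries rather than the levels of the 2 genes.

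**Figure D4:**
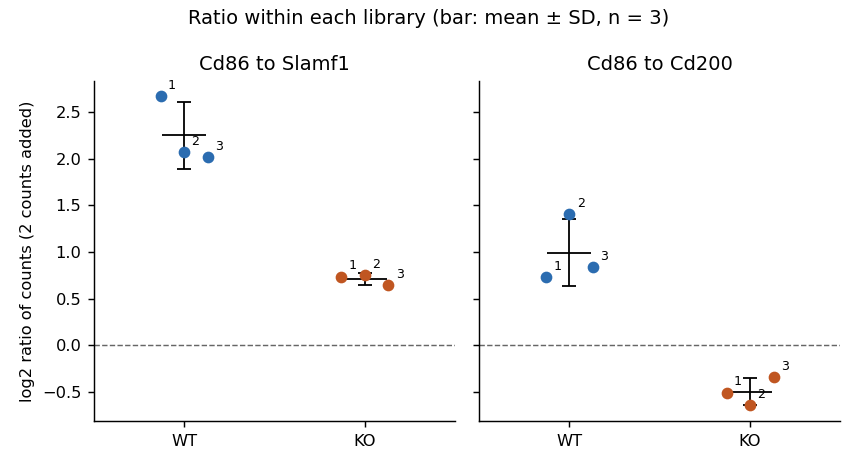
Log2 ratio of Cd86 counts to Slamf1 counts (left) and to Cd200 counts (right) within each library, 2 counts added to each gene; points are libraries numbered by replicate, bars are the mean ± SD, and the dashed line marks equal counts. The Cd86 to Cd200 ratio is above 0 in the 3 WT libraries and below 0 in the 3 KO libraries.

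The wider families were examined through 4 lists. Among B7 and CD28 family genes, 9 of 13 were tested, Cd86 alone was called (higher in WT, as were 1.3% of all tested genes), and the median log2FC was -0.12, against -0.003 over all tested genes. Btla, an inhibitory receptor of the CD28 family that lies close to Cd200 on chromosome 16, averaged 352 CPM for WT and 406.5 CPM for KO (log2FC -0.21, adjusted p 0.167). Vsir, which encodes the inhibitory ligand VISTA and is counted under an older clone name, had a log2FC of -0.29 (adjusted p 0.359), and Cd274, encoding PD-L1, one of 0.04 (0.946). Transcripts of the T cell molecules that these ligands engage were scarce, with group means of Cd28, Ctla4 and Icos between 1.51 and 2.46 CPM.

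In the list of SLAM family and SAP adaptor genes, 9 of 12 were tested and 2 were called, Slamf1 and Slamf7, both lower in WT, as 0.514% of all tested genes were. The median log2FC of the list was -0.26. That is the value of Cd244 (SE 0.66), which averaged only 1.48 CPM for WT and 1.78 CPM for KO. The count of calls was 0 without KO replicate 3 and 1 without WT replicate 1. Among TNF family costimulators, 4 of 11 were tested and 0 were called by edgeR or DESeq2, with 1 at an unadjusted p under 0.05. That gene was Cd40, the receptor through which T cells activate B cells, at a log2FC of -0.23 (adjusted p 0.42). The others were Tnfrsf18, Tnfrsf4 and Cd27, at 0.02 (adjusted p 0.989), -0.30 (0.807) and -0.42 (0.834).

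The last list joined activation markers with regulators of CD86 turnover. Of 14 listed, 12 were tested, 1 was called higher in WT (Il4ra), as 1.3% of all tested genes were, and 2 lower (Cd69 and Cd200), as 0.514% were. No regulator of turnover was among them, and March8 was not tested, with 2 to 11 counts per library. Il4ra, the IL-4 receptor chain, was at 811.3, 775 and 825.1 CPM in WT and 662.6, 555.3 and 596.5 CPM in KO. The groups were well apart (log2FC 0.41 ± 0.07 SE, adjusted p 0.000539), and the call was kept in all 6 fits that left out 1 library. Cd69, an early activation marker that retains lymphocytes in tissue, was at 158.6, 204.6 and 183 CPM in WT and 206.4, 277.6 and 249.1 CPM in KO. Its groups nearly touched, its log2FC was -0.42 ± 0.10 (SE, adjusted p 0.0423), and the call was lost without WT replicate 1 (0.123), WT replicate 3 (0.128), KO replicate 2 (0.216) or KO replicate 3 (0.216). Slc3a2, the CD98 heavy chain, had a log2FC of 0.28 (adjusted p 0.0736). March1, whose product removes CD86 from the surface, had one of -0.10 (95% interval -0.29 to 0.10, adjusted p 0.767).

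Of the list genes given with values here, Slamf7, Slamf6, Il4ra, Vsir, Cd274, Ctla4, Icos, Cd27, Tnfrsf18 and March1 overlap other annotated genes on the same or the opposite strand, and their counts carry that uncertainty.

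Genes with profiles most like those of the called members were found by the root mean square distance between log2 CPM profiles over the 6 libraries, each centered on its own mean, among 8553 genes whose mean count was 50 or more. For Cd86 the nearest were Rbm18, Armc9 and Pmepa1, at distances of 0.0827, 0.0855 and 0.0898. Pmepa1, a regulator of TGF-β signaling, was itself called higher in WT, at a log2FC of 0.72 (adjusted p 0.000121), and Rbm18 (0.55) and Armc9 (0.49) were not called. For Slamf1 they were Gm13476, Slc38a7 and Mpst at 0.186 to 0.196, and for Cd200 they were B330016D10Rik, Ceacam16 and D6Wsu163e at 0.127 to 0.128. None of these 6 was called, with adjusted p values from 0.0888 to 0.339. Their group means lay between 4.89 and 21.5 CPM. Rbm18, Armc9 and Ceacam16 overlap other annotated genes, and no position was matched for Gm13476.

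**Figure D5:**
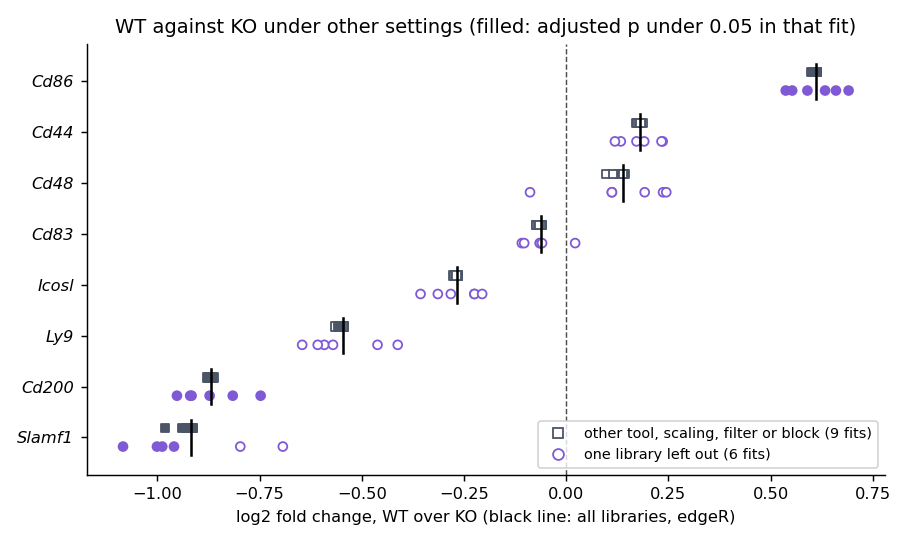
Log2 fold change of WT over KO (horizontal axis) for the 8 tested genes in 9 fits with another tool, scaling, filter, dispersion or replicate block (squares) and 6 fits that each left out 1 library (circles); the black line is the value with all libraries, and filled marks passed an adjusted p of 0.05 in that fit. Cd86 and Cd200 are filled in all 15 fits, Slamf1 in 13 and Ly9 in 6.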

How the data were processed

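Total RNA of sorted follicular B cells was made into libraries by the authors with the QuantSeq 3′ kit, which primes at transcript ends, and single-end reads were aligned to mm10 with STAR and assigned to genes with HTSeq. Which annotation and software versions were used, and whether strand was, is not given in the sources used here. The deposited values are raw counts per gene with no normalization. Of the sample columns 0 were left unused, no gene lacked a name, and the smallest total of a gene was 10 counts. Groups came from the sample titles.

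Genes were filtered with filterByExpr and scaled by TMM in edgeR (version 4.0.16, R 4.3.3), and WT and KO were compared with its quasi-likelihood test (robust dispersions, two-sided, Benjamini-Hochberg over all tested genes, threshold 0.05). SE is the absolute log2 fold change over the square root of F. CPM used TMM-scaled totals. The 95% intervals were built from that SE and include variation between libraries. Detection limits for low counts cover counting error only, as reads carry no molecular identifiers. The test was checked on simulated counts. The authors' own tool, DESeq2 (1.42.0), served as an alternative, as did limma-voom (limma 3.58.1), RLE or upper-quartile factors, library totals, dropping the filter or requiring a mean count of 50, ordinary dispersions, the replicate number as a block and omission of each library. For within-library ratios, 0.5 or 0 added counts were tried in place of 2.

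The members and lists were chosen with earlier results of these data known. Named genes were the members, called genes of the 4 family lists with up to 4 uncalled genes of each list by level, the 3 nearest profiles of Cd86, Slamf1 and Cd200, and the SLAM cluster with its neighbors. Other genes named were chosen after their values were seen. Listed genes without a row were not analysed here, and 6 symbols, including those of marker lists, were matched through a RefSeq synonym. Positions are from GENCODE M21.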

Additional observations from a re-analysis of the deposited data

How the results depend on the processing

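Of the 8 tested genes, Cd86 and Cd200 kept their direction and call in all 15 alternative fits. Ly9, uncalled at -0.55, was called under DESeq2 (-0.54), with unfiltered genes (-0.55), a mean count of 50 or more (-0.55), library totals (-0.55), upper-quartile factors (-0.56) and the replicate block (-0.55); the cause was not tested. Across fits without 1 library, Slamf1 ran from -1.08 to -0.69, Cd83 from -0.11 to 0.02 and Cd48 from -0.09 to 0.24. Those extremes turned the sign of Cd83 (0.0218 without WT replicate 1) and Cd48 (-0.0885 without WT replicate 2). In these fits, which hold fewer libraries, the SLAM list held 0 to 2 calls and all tested genes 91 to 183 calls, lowest without KO replicate 3 (91) and KO replicate 2 (113), against 191 with all libraries.

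The replicate block gave 281 calls and added Ly9 and no other member. Deviations of same-numbered WT and KO libraries correlated at 0.0138 to 0.0499 across genes, and those of differently numbered libraries at -0.0407 to -0.00268. Each library correlated best with its own number. These small values do not settle whether the numbers pair the samples. For the ratios, pairing by number leaves the mean differences at 1.54 and 1.49 by construction, so it is no check of them. Under every scaling tried, the median log2FC over tested genes stayed between -0.0123 and -0.000406. Cd80 was too shallow to compare, and Slamf1 rests on 112 to 337 counts per library.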
